A study of Homo sapiens with 17 samples.

Results

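The genes described here are 10 negative regulators of MAP kinase signalling, DUSP1, DUSP4, DUSP5, DUSP6, DUSP8, DUSP10, SPRY2, SPRY4, SPRED1 and SPRED2. They were picked by gene symbol from a table of 17808 genes, and all 10 were in it. The samples were cells labelled HepG2, a liver cancer line, with genotype WT throughout. RNA-seq covered 9 libraries, which were 3 of untreated cells (NC, 24 h by their titles), 3 of cells given 2-DG (40 mM, 48 h) and 3 of cells given Nala (40 mM). For Nala the titles give 48 h and the series design 24 h. The labels' 2-DG is the sugar analogue 2-deoxyglucose, a blocker of glycolysis, and Nala is written as in the labels. Because untreated and 2-DG cells differ in time, treatment and time in culture cannot be told apart. By the titles the same holds for Nala against untreated cells. By the series design it holds for Nala against 2-DG. All groups are 1 cell line. The series design calls the 3 libraries of a group biological replicates without saying what was separate about them, so p-values measure the spread between these libraries, which may be technical.

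MAP kinases carry signals from growth factor receptors (the ERK branch) and from stress (the JNK and p38 branches) by phosphorylating other proteins. The dual-specificity phosphatases (DUSP genes) remove the activating phosphates from MAP kinases, and several of them are themselves transcribed in response to MAP kinase activity, which closes a feedback loop. Sprouty (SPRY) and SPRED proteins act further up, between the receptor and RAF, and SPRED proteins bring the RAS inactivator neurofibromin to the membrane. The mRNA of such genes is often read as a sign of ERK output, but it does not measure kinase activity.

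Promoters are shown for 2 genes that rose with 2-DG (DUSP1 and SPRED2) and 1 that was not called (DUSP6), as examples of the range of motif content among the members. Each run holds the 250 bases before the start site in RefSeq, build GRCh38.p14, 5′ to 3′ along the gene. For 8 of the 10 genes RefSeq windows were searched, 12 in all. No window was searched for DUSP4 or DUSP5, which does not show that RefSeq lacks them. Capitals mark the letters searched on both strands, GGAA (the ETS core, TTCC on the other strand), TGANTCA (AP-1), TGACGTCA (CRE) and the CArG box.
DUSP1 promoter, chr5:172771196-172771445, minus strand: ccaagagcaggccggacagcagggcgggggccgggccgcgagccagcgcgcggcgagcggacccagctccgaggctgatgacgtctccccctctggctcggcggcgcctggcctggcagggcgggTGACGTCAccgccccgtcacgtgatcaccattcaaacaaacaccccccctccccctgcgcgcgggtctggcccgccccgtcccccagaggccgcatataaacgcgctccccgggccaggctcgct
SPRED2 promoter, chr2:65432600-65432849, minus strand: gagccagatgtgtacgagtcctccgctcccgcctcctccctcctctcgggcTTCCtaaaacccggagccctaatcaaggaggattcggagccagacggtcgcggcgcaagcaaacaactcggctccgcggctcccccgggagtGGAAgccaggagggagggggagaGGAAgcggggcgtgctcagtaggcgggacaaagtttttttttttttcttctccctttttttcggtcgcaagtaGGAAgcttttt
DUSP6 promoter, chr12:89352502-89352751, minus strand: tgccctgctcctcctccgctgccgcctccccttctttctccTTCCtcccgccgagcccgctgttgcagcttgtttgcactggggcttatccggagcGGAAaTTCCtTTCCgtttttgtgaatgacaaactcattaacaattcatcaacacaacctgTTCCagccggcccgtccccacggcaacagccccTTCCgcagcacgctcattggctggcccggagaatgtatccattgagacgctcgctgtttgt
The DUSP1 window held 1 CRE, whose first base lies 125 bases before the start, and the window of DUSP8, not shown because it lies inside the annotated gene, held 2, while 1.65% of 35116 windows of this length held any. DUSP6 had 6 ETS cores, SPRED2 had 4 and DUSP1 had 0 in the window shown, where the median window had 3 and 92.7% held at least 1. None of the 12 windows searched for the members held TGANTCA (6.57% of all windows) or a CArG box (1.16%). In the windows shown no match overlapped one of another motif. These matches are a description of letters and not of binding.

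Depth was even, at 6199778 to 6653130 counted reads per library. Nala replicates 2 and 3 differed by less than the sampling noise (chi-square per degree of freedom 0.923 over 12897 genes) and were counted as 1 sample, so Nala has n = 2 in means and tests, while ranges cover all 3 libraries. The other pairs within a group gave 2.12 to 9.89. Of 12 hepatocyte markers 4 were in the table and 3 of these stayed under 1 RPKM (reads divided by the length of the gene model and the library's total) in every library, APOB between 0 and 0.0110 among them, while HNF4A lay between 1.41 and 3.30 RPKM. The hepatocyte markers held go against the liver label of the line, but those not in the table could not be read. No gene exceeded 229.6 RPKM in any library. Whether more abundant genes, markers among them, were left out of the table was not tested. The cells are therefore named here by their label only. Of 4 markers of ductal epithelium KRT7 lay between 110.0 and 140.3 RPKM and EPCAM between 1.42 and 3.76 RPKM, while KRT19 (at most 0.818 RPKM) and SOX9 (at most 0.158 RPKM) stayed under 1 RPKM in every library. Of markers of other cell types, the 4 fibroblast genes held summed to 44.6 to 85.1 RPKM in NC, 33.2 to 50.9 with 2-DG and 60.3 to 69.7 with Nala, and the 3 immune genes to 17.9 to 25.8, 8.10 to 13.9 and 23.1 to 25.8 RPKM. The 4 endothelial genes summed to 1.2 to 7.91, 1.76 to 2.17 and 2.27 to 4.50 RPKM. The defining leukocyte gene PTPRC did not exceed 0.0593 RPKM and the endothelial PECAM1 did not exceed 0.371. With 2-DG 2 of 3 tested fibroblast genes and 1 of 2 tested immune genes fell by limma, in a comparison where 20.7% of all genes tested fell. The part of these markers in the results below was not tested. In bulk samples, fewer cells of a type and less RNA per cell cannot be told apart.

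In untreated cells the 10 genes spanned a wide range of levels per length. Gene positions below are those of RefSeq, GRCh38.p14, and values are for whole genes. DUSP1 was the highest, at 54.8 to 68.8 RPKM. SPRED2 (12.9 to 18.8 RPKM) and DUSP4 (10.2 to 21.6 RPKM) came next and overlapped each other, and DUSP4 also overlapped DUSP5 (5.93 to 10.7 RPKM). SPRY2 (4.76 to 7.90 RPKM), SPRED1 (4.60 to 5.91 RPKM) and DUSP10 (4.09 to 5.68 RPKM) overlapped each other, SPRY2 also overlapped DUSP5, and DUSP6 (2.2 to 5.25 RPKM) overlapped all 3. SPRY4 lay at 0.839 to 2.29 RPKM, its highest library just above the lowest of DUSP6, and DUSP8 at 0.104 to 0.137 RPKM. DUSP8 (chr11:1554051-1572848), a JNK and p38 phosphatase, had 3 to 4 reads in NC, 4 to 7 with 2-DG and 0 to 3 with Nala. It did not pass the filter of 1 RPKM in 3 libraries and was not tested, and its gene overlaps KRTAP5-AS1. The other 9 genes passed.

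**Figure D1:**
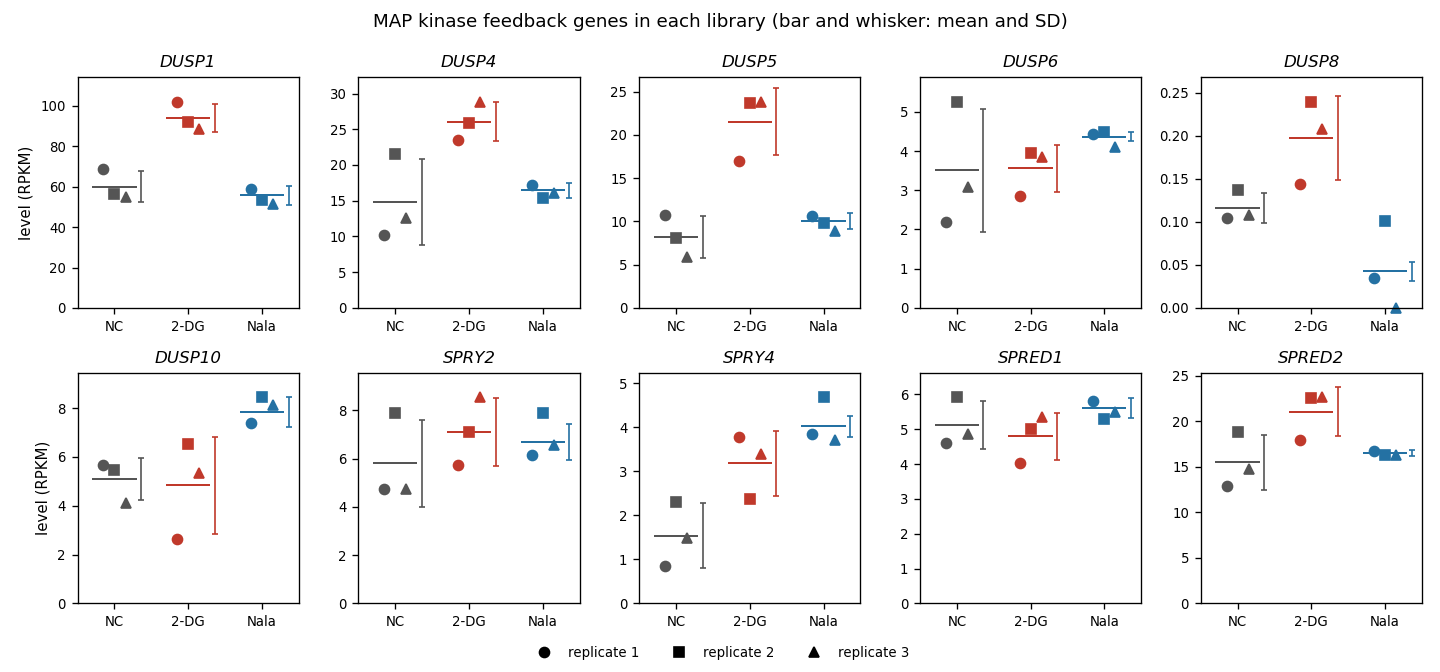
Levels of the 10 genes in RPKM (vertical axis, from 0, own scale per gene) in each library, with NC in grey, 2-DG in red and Nala in blue and a symbol per replicate number. Horizontal bars are means and whiskers SD (n = 3, 3 and 2, Nala replicates 2 and 3 averaged); DUSP1, DUSP4, DUSP5 and SPRY4 are higher in every 2-DG library than in any NC library.

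With 2-DG, 5 of the 9 tested genes rose and none fell, by limma at an adjusted p under 0.05. These were the 3 nuclear phosphatases DUSP1, DUSP4 and DUSP5, the Sprouty gene SPRY4 and SPRED2. DUSP6, DUSP10, SPRY2 and SPRED1 were not called. Over all 12922 genes tested 43.3% were called, 22.6% as higher and 20.7% as lower, so that a call is common in this comparison. The median log2 fold change of the 9 genes was 0.43, beside 0.02 over all genes tested. The genes were chosen with earlier results of these data known, so this difference is a description only. In 4 of the 9 genes every 2-DG library lay above every NC library, as in 27.1% of all genes tested, and in none did every 2-DG library lie below (25% of all). Fold changes were computed from log2(RPKM + 1), and for low genes this makes them smaller than the ratio of the RPKM values.

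DUSP5 (chr10:110497907-110511533), a nuclear phosphatase that acts on ERK, changed most. Its levels in NC replicates 1 to 3 were 10.7, 8.03 and 5.93 RPKM, and with 2-DG they were 17.0, 23.7 and 23.8 RPKM. The 2 groups did not overlap, and 2-DG replicate 1 was the lowest of the 2-DG libraries. From 8.23 ± 2.41 to 21.5 ± 3.88 RPKM (SD, n = 3 each), DUSP5 rose by 1.30 on the log2 scale (limma adjusted p = 0.00082, SE 0.198), or 2.61-fold by the means. The pseudogene DUSP5P1, looked at because a near copy could share reads, lay between 3.68 and 9.36 RPKM in NC libraries and between 3.08 and 5.19 RPKM in 2-DG libraries, with a log2 fold change of -0.40 (limma adjusted p = 0.275).

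DUSP1 (chr5:172768096-172771195), which encodes a nuclear phosphatase of p38, JNK and ERK, was at 68.8, 56.5 and 54.8 RPKM in NC and at 102.0, 92.0 and 88.5 RPKM with 2-DG. Every 2-DG library was above every NC library, and replicate 1 was the highest of each group. The mean went from 60.1 ± 7.63 to 94.2 ± 6.99 RPKM (SD, n = 3 each), a rise of 0.65 on the log2 scale (limma adjusted p = 0.00084, SE 0.0984).

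DUSP4 (chr8:29333064-29350684), the nuclear phosphatase of ERK and JNK, was uneven among untreated cells, at 10.2, 21.6 and 12.5 RPKM. With 2-DG it was at 23.5, 25.9 and 28.8 RPKM, so that NC replicate 2 came close to the lowest 2-DG library. Its means were 14.8 ± 6.02 and 26.1 ± 2.68 RPKM (SD, n = 3 each), and DUSP4 rose by 0.84 on the log2 scale (limma adjusted p = 0.0131, SE 0.221). DUSP1, DUSP4 and DUSP5 stayed called on leaving out any single library, with the highest adjusted p for DUSP4 at 0.0479.

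DUSP6 (chr12:89347235-89352501), the cytoplasmic phosphatase specific for ERK, was not called. NC replicates held 2.2, 5.25 and 3.08 RPKM and 2-DG replicates 2.86, 3.96 and 3.85 RPKM, all of which lay inside the NC range. The log2 fold change was 0.06 (95% interval -0.46 to 0.58, limma adjusted p = 0.85), an interval that leaves room for a change in either direction. Its gene overlaps the readthrough POC1B-DUSP6. DUSP10 (chr1:221701424-221742089), a phosphatase of JNK and p38, was at 5.68, 5.48 and 4.09 RPKM in NC and at 2.65, 6.51 and 5.33 RPKM with 2-DG. The lowest and the highest of these 6 values were both from 2-DG libraries. Its log2 fold change was -0.11 (95% interval -0.67 to 0.44, limma adjusted p = 0.737), and without 2-DG replicate 1 it was 0.19 (limma adjusted p = 0.351).

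SPRY4 (chr5:142310430-142325021), a Sprouty inhibitor of receptor signalling to RAS and ERK, was low in every untreated library, at 0.839, 2.29 and 1.48 RPKM (27, 75 and 46 reads). With 2-DG it was at 3.78, 2.36 and 3.39 RPKM (117, 77 and 109 reads), and the lowest 2-DG value was just above the highest untreated one. It rose by 0.74 on the log2 scale (limma adjusted p = 0.0259, SE 0.227), or 2.06-fold by the means. The call was lost without NC replicate 1 or 3 or 2-DG replicate 1 or 3 (limma adjusted p = 0.0643, 0.0626, 0.0736 and 0.0773). The noncoding gene SPRY4-IT1 lies over SPRY4, and whether reads were assigned by strand is not stated. SPRY2 (chr13:80335976-80341126), its relative, was at 4.76, 7.90 and 4.76 RPKM in NC and 5.72, 7.12 and 8.54 RPKM with 2-DG, with overlapping groups. Its log2 fold change was 0.27 (95% interval -0.18 to 0.72, limma adjusted p = 0.298).

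SPRED2 (chr2:65307175-65432599) was at 12.9, 18.8 and 14.8 RPKM in NC and at 17.9, 22.6 and 22.6 RPKM with 2-DG, where the lowest 2-DG library was under NC replicate 2. It rose by 0.43 on the log2 scale (limma adjusted p = 0.0377, SE 0.143), close to the threshold. The call was lost in 5 of 9 fits with 1 library left out, namely NC replicate 1 or 3, 2-DG replicate 2 or 3 or Nala replicate 1 (limma adjusted p = 0.108, 0.104, 0.112, 0.119 and 0.0590). It was also lost with no filter on low values (limma adjusted p = 0.0561) and with NC and 2-DG fitted alone (limma adjusted p = 0.0589). SPRED1 (chr15:38252836-38357249) was at 4.60, 5.91 and 4.86 RPKM in NC and 4.05, 5.00 and 5.35 RPKM with 2-DG. It lay between 4.05 and 5.91 RPKM over both groups, with a log2 fold change of -0.08 (95% interval -0.40 to 0.24, limma adjusted p = 0.677).

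**Figure D2:**
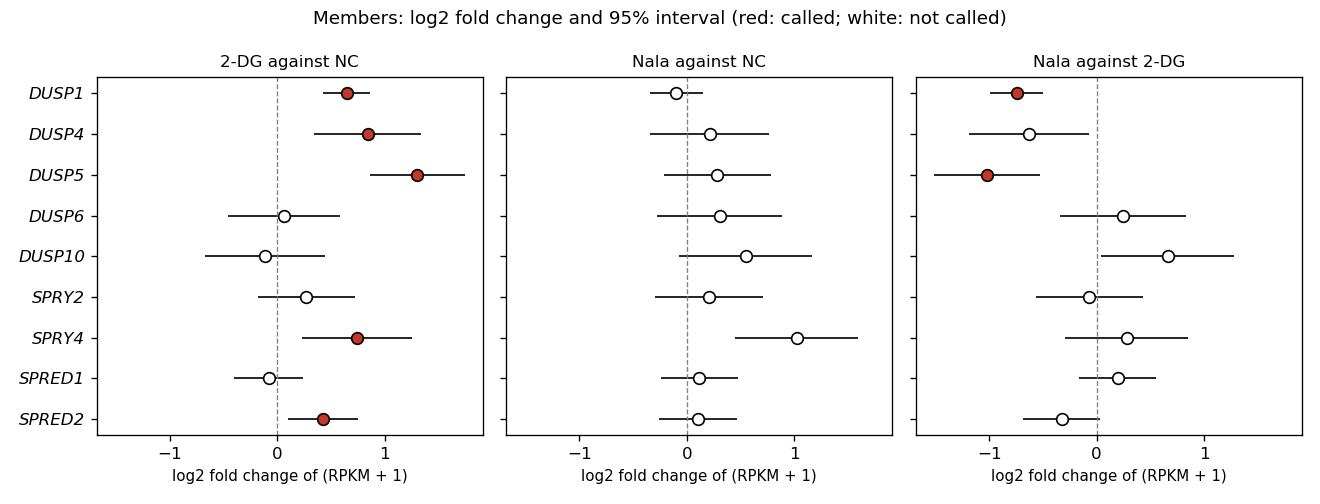
Log2 fold change of RPKM + 1 (horizontal axis) of the 9 tested genes with 95% intervals, in 3 panels for the 3 comparisons, with genes called by limma in red and others in white. With 2-DG against NC, 5 genes are called from 0.43 (SPRED2) to 1.30 (DUSP5), none with Nala against NC, and DUSP1 and DUSP5 are lower with Nala than with 2-DG.

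With Nala none of the 9 genes was called by limma, in a comparison with 8 calls among all genes tested (0.0619%), and none by voom on recovered reads. At an unadjusted p under 0.05 there was 1 gene, SPRY4, where 5.61% of all genes tested passed. SPRY4 was at 3.84, 4.67 and 3.70 RPKM in the Nala libraries (124, 155 and 123 reads), all above the highest NC value of 2.29 RPKM. Its log2 fold change was 1.02 (95% interval 0.45 to 1.59, limma adjusted p = 0.32). Beside it stands the 0.74 of 2-DG against NC, a comparison that shares the NC libraries. DUSP10 was at 7.40, 8.44 and 8.14 RPKM with Nala, also above all NC libraries, with a log2 fold change of 0.55 (95% interval -0.07 to 1.17, limma adjusted p = 0.954). In 2 of 9 genes every Nala library was above every NC library, as in 10.2% of all genes tested.

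The other genes overlapped between Nala and NC. DUSP1 was at 59.0, 53.5 and 51.6 RPKM with Nala, with a log2 fold change of -0.10 (95% interval -0.35 to 0.15). DUSP4 was at 17.2, 15.4 and 16.1 RPKM and DUSP5 at 10.6, 9.82 and 8.92 RPKM, each inside its NC range. DUSP6 was at 4.44, 4.48 and 4.10 RPKM, SPRY2 at 6.17, 7.89 and 6.55 RPKM, SPRED1 at 5.82, 5.31 and 5.49 RPKM and SPRED2 at 16.8, 16.3 and 16.3 RPKM, again inside the NC ranges.

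Set against each other, the treatments differed in 2 of the 9 genes by limma, where 35.9% of all genes tested were called and 18% as lower with Nala. DUSP1 was lower with Nala by a log2 fold change of -0.75 (limma adjusted p = 0.00101, SE 0.11) and DUSP5 by -1.02 (limma adjusted p = 0.0069, SE 0.221). DUSP4 had a log2 fold change of -0.63 (limma adjusted p = 0.0736) and DUSP10 of 0.66 (limma adjusted p = 0.0893). With the Nala libraries kept apart 4 genes were called, DUSP4 (limma adjusted p = 0.0277) and DUSP10 (limma adjusted p = 0.0343) besides. The Nala libraries of 4 genes, DUSP1, DUSP4, DUSP5 and SPRED2, all lay below those of 2-DG, as in 29.4% of all genes tested, and those of 2 genes, DUSP6 and DUSP10, all above, as in 28.9%. SPRY4 had a log2 fold change of 0.28 between the treatments (95% interval -0.29 to 0.85, limma adjusted p = 0.422), an interval that does not show equal levels.

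Counts of calls in the lists of other pathway genes stand beside a background of 22.6% of all genes tested called as higher and 20.7% as lower with 2-DG. Among the other MAP kinase phosphatases DUSP2 and DUSP9 fell with 2-DG, while DUSP7 and DUSP16 were not called (0.12 and 0.04 on the log2 scale, limma adjusted p = 0.565 and 0.891). DUSP7 was called as higher without 2-DG replicate 1 (0.32, limma adjusted p = 0.0217). DUSP2, a nuclear phosphatase best known from activated leukocytes, was at 41.4, 28.2 and 34.5 RPKM in NC and at 7.56, 5.63 and 6.54 RPKM with 2-DG. It fell by 2.23 on the log2 scale (limma adjusted p = 1.9e-05, SE 0.175). DUSP9, a cytoplasmic ERK phosphatase like DUSP6, was at 53.0, 47.4 and 40.7 RPKM in NC and at 15.6, 19.4 and 23.4 RPKM with 2-DG, and fell by 1.24 (limma adjusted p = 0.00019, SE 0.144). With Nala both overlapped NC, at 25.0 to 36.4 RPKM and 42.4 to 45.9 RPKM, and both were higher with Nala than with 2-DG (limma adjusted p = 9.1e-05 and 0.00075).

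SPRED3, the remaining SPRED gene, rose with 2-DG from 1.68, 1.2 and 1.30 RPKM to 5.69, 4.49 and 4.92 RPKM. The change was 1.33 on the log2 scale (limma adjusted p = 0.00015, SE 0.149), larger in size than that of SPRED2 or SPRED1, a difference that was not itself tested. SPRY1 and SPRY3 were under the filter. Of the atypical phosphatases, small enzymes without the kinase-docking domain, 5 of 8 rose with 2-DG and none fell. DUSP15 rose by 1.29, DUSP28 by 0.83 and DUSP11, an RNA phosphatase, by 0.74 on the log2 scale (limma adjusted p = 0.0052, 0.0012 and 0.0029). DUSP15 was low, with 28, 11 and 6 reads in NC replicates 1 to 3 and 40, 63 and 46 reads with 2-DG. The same list had 5 of 8 genes lower with Nala than with 2-DG, and 2 of its 10 genes were under the filter.

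**Figure D3:**
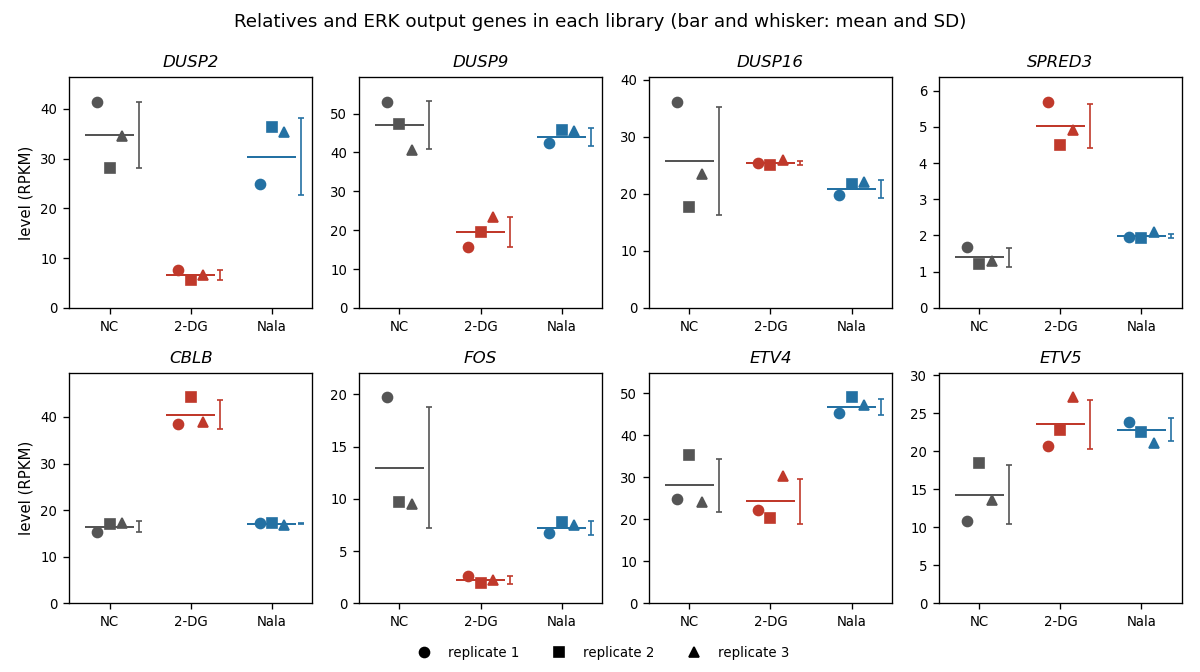
Levels in RPKM (vertical axis, from 0, own scale per gene) of 8 relatives and output genes in each library, with NC in grey, 2-DG in red and Nala in blue, bars for means and whiskers for SD (n = 3, 3 and 2). DUSP2, DUSP9 and FOS are lower in every 2-DG library than in any other, SPRED3 and CBLB higher, and ETV4 is highest with Nala.

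Of the RAS-ERK cascade itself, with 16 tested genes from GRB2 to MAPK3, 2 genes rose and 1 fell with 2-DG, and the median change was 0.05 (log2). The kinase gene BRAF averaged 27.0 ± 1.07 RPKM in NC and 43.5 ± 6.11 RPKM (SD, n = 3 each) after 2-DG, and rose by 0.66 (limma adjusted p = 0.00098), the RAS activator SOS2 rose by 0.52 (limma adjusted p = 0.006) and the adaptor GAB1 fell by 0.62 (limma adjusted p = 0.0223). HRAS was under the filter. Of 10 other inhibitors of receptors and RAS 3 rose and 1 fell. CBLB, a ubiquitin ligase that acts on receptors, averaged 16.5 ± 1.09 RPKM in NC and 40.5 ± 3.18 RPKM (SD, n = 3 each) after 2-DG, and rose by 1.24 (limma adjusted p = 1.3e-05). ERRFI1, which inhibits EGF receptors, rose by 0.63 (limma adjusted p = 0.0177) and PEBP1, a RAF inhibitor, fell by 0.32 (limma adjusted p = 0.0099). ERRFI1 was not called in 3 of 9 fits with 1 library left out and GAB1 not in 4 of 9, with adjusted p up to 0.0612 and 0.065.

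In the JNK and p38 branches 5 of 16 tested genes fell with 2-DG and 1 rose. MAP2K6, a kinase that activates p38, fell by 1.2, and the JNK genes MAPK9 and MAPK8 fell by 0.62 and 0.55 on the log2 scale (limma adjusted p = 0.0003, 0.0005 and 0.00031). MAPK11, a p38 gene that also fell (-0.39, limma adjusted p = 0.0297), lost its call in 5 of 9 fits with 1 library left out, namely any 1 of the NC libraries or 2-DG replicate 2 or 3, with adjusted p up to 0.102. Of 8 kinases downstream of MAP kinases 2 rose and 1 fell. RPS6KA5, which phosphorylates histones and CREB, fell by 1.44 (limma adjusted p = 1.9e-05), and MKNK2 rose by 0.45 (limma adjusted p = 0.0048). MAPKAPK2, the other that rose, had an adjusted p of 0.0424 by limma, and its call was lost in 5 of 9 fits with 1 library left out, with adjusted p up to 0.161. Of 8 transcription factors under MAP kinase control 2 rose and 2 fell. ELK4 rose by 0.76, ELK3 fell by 0.66 and ERF, an ETS repressor, fell by 0.48 (limma adjusted p = 0.00022, 0.0062 and 0.002). Over all 81 tested genes of the 9 lists 17 rose and 14 fell with 2-DG, which is no larger a share than the 43.3% called over all genes tested. None was called with Nala against NC, and 17 were higher and 12 lower with Nala than with 2-DG.

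**Figure D4:**
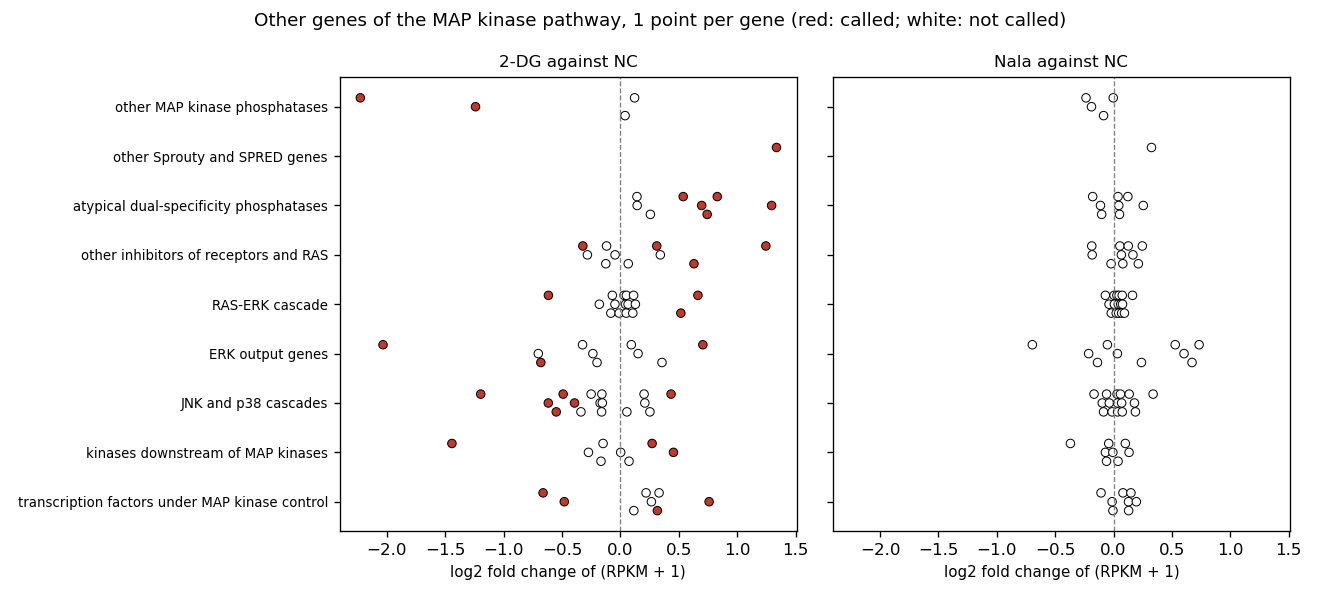
Log2 fold change of RPKM + 1 (horizontal axis) of the 81 tested genes in 9 lists of the MAP kinase pathway, 1 point per gene, for 2-DG against NC and Nala against NC, with genes called by limma in red and others in white. With 2-DG 17 genes are called as higher and 14 as lower, from -2.23 (DUSP2) to 1.33 (SPRED3), and with Nala none is called.

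Genes commonly used to read ERK output were split. Of 10 tested 1 rose with 2-DG and 2 fell, and the median change was -0.22 (log2). ETV5, an ETS factor, was at 10.8, 18.5 and 13.5 RPKM in NC and at 20.7, 22.8 and 27.1 RPKM with 2-DG, and rose by 0.71 (limma adjusted p = 0.0099, SE 0.174). FOS, an AP-1 subunit, was at 19.7, 9.69 and 9.55 RPKM in NC and at 2.62, 1.91 and 2.23 RPKM with 2-DG, and fell by 2.03 (limma adjusted p = 0.00022, SE 0.244). ETV1 fell by 0.68 (limma adjusted p = 0.0165). With Nala, ETV5 was at 23.9, 22.5 and 21.1 RPKM, ETV4 at 45.4, 49.0 and 47.2 RPKM against 24.8, 35.4 and 24.3 RPKM in NC, and FOS at 6.74, 7.81 and 7.52 RPKM. None of these passed the test against NC, at 0.67, 0.73 and -0.70 on the log2 scale (limma adjusted p = 0.449, 0.359 and 0.796), though in each the 2 groups did not overlap. ETV1 and EPHA2 also lay above every NC library in all Nala libraries. Over all genes tested, every Nala library lay above every NC library in 10.2% and below in 8.03%. Nala libraries were higher than 2-DG libraries for ETV4 (log2 fold change 0.93, limma adjusted p = 0.0053), ETV1 (1.29, limma adjusted p = 0.0017) and FOS (1.34, limma adjusted p = 0.005). EPHA4 and IER3 were under the filter.

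The untreated libraries differed among themselves in these genes. NC replicate 2 was the highest NC library for 6 of the 9 tested members, namely DUSP4, DUSP6, SPRY2, SPRY4, SPRED1 and SPRED2, and for 8 of 10 ERK output genes, where it was the highest for 34.9% of all genes tested. DUSP1, DUSP5 and DUSP10 were highest in NC replicate 1 instead, as was FOS and as were 38.5% of all genes tested, and NC replicate 3 was the highest for 0 of 9 members and 26.6% of all genes tested. The depth of NC replicate 2, 6548811 counted reads, lay within the range of the other libraries. This spread widens the error of the fold changes against NC for DUSP4, DUSP6 and SPRY4. Without NC replicate 2 the log2 fold change of DUSP4 with 2-DG was 1.13 and that of DUSP6 0.32 (limma adjusted p = 0.191), and without NC replicate 1 they were 0.63 and -0.16 (limma adjusted p = 0.0325 and 0.569).

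**Figure D5:**
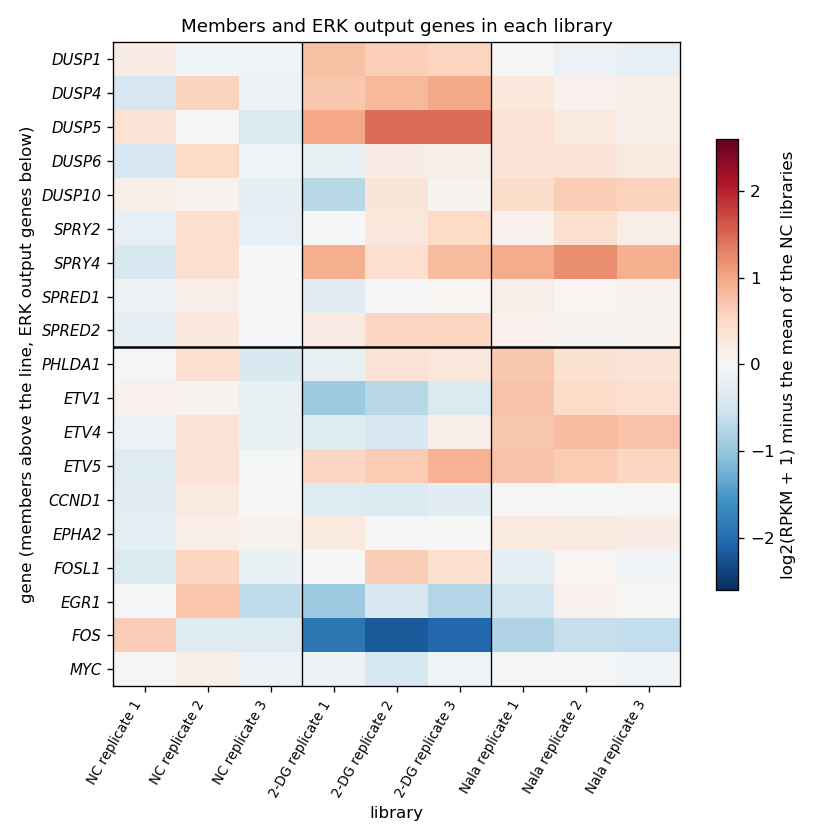
Log2(RPKM + 1) minus the mean of the 3 NC libraries (colour) for the 9 tested members, above the line, and 10 ERK output genes, below it, in the 9 libraries (horizontal axis). NC replicate 2 is the highest NC library for 6 of 9 members and 8 of 10 output genes, the nuclear phosphatases are red with 2-DG, and FOS is blue with 2-DG.

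Profiles were compared over the 8 samples by the root mean square difference of log2 deviations from each gene's mean, among 10255 tested genes with a mean of at least 5 RPKM. Nearest to DUSP5 were DHRS4-AS1, PHLDB3 and TMEM198, at 0.0814, 0.139 and 0.162. DHRS4-AS1 lay between 1.82 and 3.72 RPKM in untreated cells and between 6.37 and 10.2 RPKM after 2-DG, and between 3.29 and 4.24 RPKM after Nala. Nearest to DUSP4 were CCDC71L, RAB3IL1 and RRP12, at 0.154, 0.154 and 0.163. SPRY4 had CCN3, ETV5 and ACSS2 as its nearest, at 0.227, 0.232 and 0.262, so that an ERK output gene was among them. ACSS2, which makes acetyl-CoA from acetate, was at 31.2 to 35.1 RPKM in NC, 46.8 to 54.8 with 2-DG and 51.3 to 58.2 with Nala. A like profile over 8 samples in 3 groups is a description only.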

How the data were processed

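RNA-seq was measured in 9 libraries. The deposited values are RPKM per gene and library, computed by the authors, with 1 column per library, per the file headers. The build is hg38, per the submitters' processing notes, which list RSEM 1.2.8, HISAT2 2.1.0, STAR 2.7.6a, Bowtie2 2.2.5 and fastp 0.23.1 among tools of several assays. Which of them made the RPKM values, and with what strand setting, is not stated there. The series' other samples, 6 of ChIP-seq and 2 of ATAC-seq, are not analysed here.

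Reads were recovered from the steps of the RPKM values, within 0.0001 reads for 100% of genes, which gives counted totals of 6199778 to 6653130. Groups and replicate numbers come from the sample titles (the treatment label of Nala replicate 1 is garbled). Replicate pairs were compared by chi-square where the mean reached 10 reads.

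The test took the 12922 genes that reached 1 RPKM in 3 or more libraries. The log2(RPKM + 1) values of all 3 groups entered 1 fit in limma 3.58.1 under R 4.3.3, with its trend option on and no covariate. Benjamini-Hochberg adjustment ran over all genes tested in a comparison, and an adjusted p under 0.05 was a call. Intervals are 95% and unadjusted. The fit was also run on simulated reads with a fixed spread setting for every gene, which was not matched to the spread of these libraries. No result here rests on that run.

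The members and the 9 lists of other pathway genes (90 genes) were chosen with earlier results of these data known. In each list up to 3 called genes with the largest change are named, and for the 3 members with the largest change with 2-DG the 3 genes of nearest profile. DUSP5P1 was added after values were seen, as were ETV4, ETV5 and FOS with Nala. Positions and promoters are from RefSeq, GRCh38.p14. The alternatives were another pseudocount (0.1), 2 other filters, 3 scalings, no trend, the compared groups alone, the Nala libraries apart, the replicate number as a block, voom on recovered reads and each library left out.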

Additional observations from a re-analysis of the deposited data

How the results depend on the processing

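Apart from the left-out libraries, 11 alternatives were run. With 2-DG against NC they left the calls of 9 members as they were in 95 of 97 values, and with Nala against NC in 97 of 97. With single libraries left out the number of members called with 2-DG ranged from 3 to 5 and that of all genes from 4186 to 6006. The ranges were 0 to 0 and 1 to 23 for Nala against NC, and 2 to 3 and 2217 to 5176 for Nala against 2-DG. In Nala against NC the count of all genes moved from 8 to 25 with no filter, 15 with a filter of 5 RPKM, 13 with median-of-ratios scaling, 16 with quantile normalization, 16 with a common library sum, 64 with the Nala libraries apart, 31 with the Nala libraries apart and the replicate block together, and 54 with voom, with no member called in any of them. In Nala against 2-DG the members called went from 2 to 4 with the Nala libraries apart, also with the replicate block added to that (4), and with voom. The causes were not tested.

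Directions that turned on leaving out 1 library were those of log2 fold changes of at most 0.21 in size with all libraries. That largest value was for DUSP4 with Nala against NC. With 2-DG against NC the left-out ranges (log2) were -0.16 (without NC replicate 1) to 0.32 for DUSP6, which was also -0.0042 without 2-DG replicate 2, -0.149 to 0.016 for SPRED1, which turned without 2-DG replicate 1 and was 0.01 without NC replicate 2, -0.33 to 0.19 (without 2-DG replicate 1) for DUSP10, and -0.19 (without NC replicate 2) to 0.30 for DUSP16. With Nala against NC they were -0.18 to 0.00043 for DUSP1, -0.0025 to 0.50 for DUSP4 and -0.013 to 0.24 for SPRED2, each turning without NC replicate 1. With Nala against 2-DG SPRY2 ranged from -0.20 to 0.056 (without 2-DG replicate 3) and was 0.03 without Nala replicate 1. No scaling moved the median over genes by as much as 0.1 (log2).

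Same-numbered libraries of different groups did not deviate together (correlations of -0.119 to 0.0772, and 0 of 9 libraries correlated best with their own number), so the replicate block rests on a shared number only. It was fitted only with the Nala libraries apart, where 2-DG against NC had 5 members and 5867 genes called with the replicate block and 5 members and 6019 genes without it. Low read numbers limit DUSP8, SPRY4, DUSP6 and DUSP10 among the members, and also DUSP15. DUSP6 had 40, 97 and 54 reads in NC replicates 1 to 3 and 50, 73 and 70 reads in 2-DG replicates 1 to 3. DUSP10 had 44 reads in 2-DG replicate 1.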
